A study of Mus musculus with 18 samples.

Results

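The 10 genes described here are chemokines and receptors that bring monocytes and other leukocytes into tissue. They were chosen by name, with earlier results of these data known. The set holds 4 CC ligands (Ccl2, Ccl5, Ccl6 and Ccl24), 4 CXC ligands (Cxcl1, Cxcl9, Cxcl10 and Cxcl14) and 2 receptors (Ccr2 and Cx3cr1). All 10 were present among the 16245 genes measured. Bulk RNA-seq was performed on liver from 18 wild-type mice, labelled C57BL/6 and, according to the methods of the study, male and of the C57BL/6J substrain. All mice were fed a NASH diet, a diet rich in fat and fructose that causes fatty liver with inflammation, and were kept at about 29 °C from 8 weeks of age. They were housed singly once assigned at random to groups matched on body weight and composition, before treatment began. The 3 groups held 6 mice each, given vehicle, once-daily subcutaneous recombinant GDF15, or only as much food as the GDF15-treated mice had eaten the day before (pair-fed). The labels list several GDF15 doses without saying which a given liver received, and give no time of collection. The text and a figure legend of the study name different doses of that list for these livers, so no dose is given here. No group of mice on a standard diet was analysed here, so all 3 groups share the diet, the housing temperature and the strain.

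Chemokines are small secreted proteins that guide leukocytes through G-protein-coupled receptors. In liver, CCL2 recruits inflammatory monocytes from blood through CCR2, and CX3CR1, the receptor of fractalkine (CX3CL1), marks monocytes and macrophages derived from them. CXCL9 and CXCL10 are induced by interferons and attract T cells and natural killer (NK) cells through CXCR3, CXCL1 attracts neutrophils through CXCR2, and CCL24 attracts eosinophils through CCR3. GDF15 is a circulating stress cytokine that reduces food intake, and the pair-fed group addresses which changes are also seen when intake alone is lowered.

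Libraries held 16508864 to 35301853 counts. The pair-fed libraries with replicate numbers 4 to 6 were the largest (25047723 to 35301853), and those numbered 1 to 3 held 17180057 to 17926397. A count of 3, taken as the limit of detection, corresponded to 0.0850 to 0.182 CPM (counts scaled to the library total), for counting error only. Every gene of the 10 lay above this limit in every library except Ccl24, at 3 counts in vehicle replicate 3. Levels are given below as normalized counts (counts divided by a size factor per library), fold changes as log2 values from DESeq2 with their standard errors, and adjusted p-values after the Benjamini-Hochberg procedure over all genes tested. A gene was called changed at an adjusted p under 0.05 with an absolute log2 fold change above 1.

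In GDF15 livers, Ccl2 and its receptor gene Ccr2 were 5.40-fold and 3.57-fold lower than in vehicle livers, Cx3cr1 was 3.38-fold lower and Cxcl14 was 2.84-fold lower. Ccl5, Cxcl9, Cxcl1 and Ccl24 passed neither threshold. Compared with vehicle, 4 of the 10 genes were called lower (Ccl2, Cxcl14, Ccr2 and Cx3cr1) and none was called higher, beside 5.37% of all genes tested called lower. Ccl6 and Cxcl10 were also lower at an adjusted p under 0.05, giving 6 of 10, beside 17.5% of all genes. Compared with pair-fed controls the called genes were the same 4, beside 2.75% of all genes, and the genes lower at adjusted p alone were the same 6, beside 13.8%. The median log2 fold change of the 10 genes was -0.72 against vehicle and -0.79 against pair-fed, with medians over all genes of 0.0024 and -0.00077. The 2 comparisons share the GDF15 samples. Because the 10 genes were chosen with earlier results of these data known, the counts beside all genes are a description only. Both counts were the same in the quasi-likelihood test of edgeR.

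**Figure D1:**
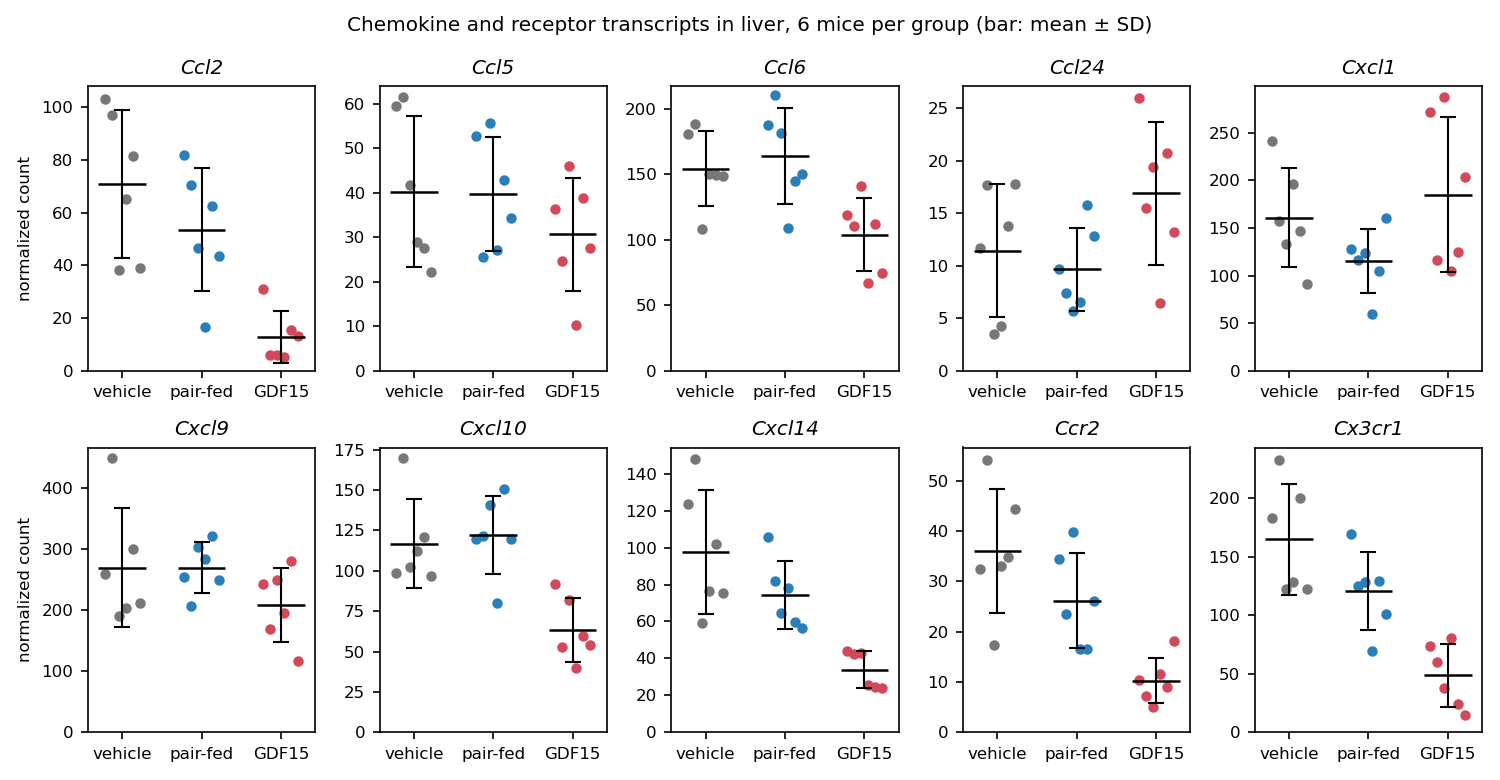
Normalized counts (vertical axes, from 0) of the 10 genes in liver, with 1 point per mouse, grey for vehicle, blue for pair-fed and red for GDF15, and black bars for mean ± SD (n = 6). The 6 GDF15 samples lie below all vehicle samples for Ccl2, Cxcl10, Cxcl14 and Cx3cr1, while for Ccl5, Ccl24, Cxcl1 and Cxcl9 the groups overlap.

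Coordinates are those of the GENCODE annotation of GRCm38 (mm10), and all 10 genes are protein coding. Several of the ligands lie in clusters: Ccl2 (chr11:82035571-82037453, + strand), Ccl5 (chr11:83525778-83530518, - strand) and Ccl6 (chr11:83587882-83593087, - strand) on chromosome 11, and Cxcl1 (chr5:90891241-90893115, + strand), Cxcl9 (chr5:92321347-92328079, - strand) and Cxcl10 (chr5:92346638-92348889, - strand) on chromosome 5. Ccl24 (chr5:135569937-135573049, - strand) lies far from that cluster on the same chromosome, and Cxcl14 (chr13:56288643-56296551, - strand) lies on chromosome 13. The receptor genes are on chromosome 9, Ccr2 at chr9:124101950-124113557 (+ strand) and Cx3cr1 at chr9:119901616-120069879 (- strand).

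The promoters of the 4 CXC ligands are shown because 2 of these genes (Cxcl10 and Cxcl14) fell past the adjusted p in both GDF15 comparisons and 2 (Cxcl9 and Cxcl1) did not. RefSeq promoter sequences (GRCm38.p6) matched 7 of the 10 genes, with Ccl2, Ccl5 and Ccl24 not matched. Each line is the 250 bases before the start site, 5′ to 3′ on the gene's strand, with capitals for matches on either strand to a search pattern of NF-kappaB, the inflammatory transcription factor (GGG and CC separated by any 5 bases), of the interferon-stimulated response element or ISRE (GAAA and GAAA separated by any 2 bases), or of the gamma-activated sequence or GAS bound by STAT factors (TTC and GAA separated by any 3 bases). The windows are chr5:92348890-92349139 (-) for Cxcl10, chr5:92328080-92328329 (-) for Cxcl9, chr5:90890995-90891244 (+) for Cxcl1 and chr13:56296552-56296801 (-) for Cxcl14.
Cxcl10: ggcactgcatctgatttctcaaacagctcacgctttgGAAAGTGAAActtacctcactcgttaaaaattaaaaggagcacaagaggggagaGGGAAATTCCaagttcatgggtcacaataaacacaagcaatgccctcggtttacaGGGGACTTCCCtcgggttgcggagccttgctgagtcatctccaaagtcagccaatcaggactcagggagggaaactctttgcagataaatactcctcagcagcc
Cxcl9: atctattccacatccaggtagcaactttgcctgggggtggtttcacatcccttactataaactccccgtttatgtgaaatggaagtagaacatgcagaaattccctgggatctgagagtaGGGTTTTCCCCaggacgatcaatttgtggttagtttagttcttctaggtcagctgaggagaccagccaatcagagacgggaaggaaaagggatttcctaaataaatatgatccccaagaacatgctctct
Cxcl1: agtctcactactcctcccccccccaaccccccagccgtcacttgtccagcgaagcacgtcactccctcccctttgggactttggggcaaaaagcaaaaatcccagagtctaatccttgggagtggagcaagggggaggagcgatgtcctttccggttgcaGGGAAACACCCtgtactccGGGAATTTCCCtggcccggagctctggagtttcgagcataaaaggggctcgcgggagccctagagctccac
Cxcl14: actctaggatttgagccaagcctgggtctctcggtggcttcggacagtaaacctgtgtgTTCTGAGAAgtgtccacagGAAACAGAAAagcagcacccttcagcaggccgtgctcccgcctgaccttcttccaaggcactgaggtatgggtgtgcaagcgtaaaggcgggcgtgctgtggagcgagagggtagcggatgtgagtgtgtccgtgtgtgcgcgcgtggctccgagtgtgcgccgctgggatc
The Cxcl10 window held 1 ISRE match and 4 NF-kappaB matches, of which 3 overlap one another. The Cxcl9 window held 3 NF-kappaB matches that overlap one another, and the Cxcl1 window held 4 in 2 overlapping pairs. The Cxcl14 window held 1 ISRE and 1 GAS match. Among 32851 promoter windows of this length, 45.8% held the NF-kappaB pattern, 2.98% the ISRE pattern and 7.02% the GAS pattern. Neither Ccl6 nor Ccr2 had a match, and Cx3cr1 had 1 NF-kappaB match. A match is a run of letters and was not tested as a binding site.

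Ccl2, the main attractant of CCR2-bearing monocytes, showed the deepest fall of the 10 genes in both GDF15 comparisons. In normalized counts, vehicle samples ran from 38.4 to 103 (median 73.5), pair-fed samples from 16.5 to 81.9 (median 54.5) and GDF15 samples from 5.14 to 31.2 (median 9.73). All 6 GDF15 samples lay below every vehicle sample, and 5 of 6 lay below every pair-fed sample. Vehicle livers averaged 70.7 ± 28.0 (SD, n = 6), pair-fed livers 53.6 ± 23.2 and GDF15 livers 12.9 ± 9.93. It fell by 2.43 ± 0.42 (SE) on the log2 scale against vehicle, 5.40-fold (DESeq2 adjusted p = 1.69e-07), and by 2.03 ± 0.42 against pair-fed, 4.07-fold (adjusted p = 2.64e-05). These GDF15 values rest on 4 to 36 counts per library, against 33 to 114 in the vehicle group.

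Among the other CC ligands, Ccl6 passed the adjusted p alone and Ccl5 and Ccl24 passed neither threshold. Ccl6, a macrophage-derived CC chemokine, ran from 108 to 189 with a median of 150 in vehicle samples, from 109 to 210 with a median of 166 in pair-fed samples, and from 66.8 to 141 with a median of 111 in GDF15 samples. The groups overlapped, with 2 GDF15 samples below all vehicle samples and 2 below all pair-fed samples. Ccl6 fell by 0.57 ± 0.19 on the log2 scale against vehicle (DESeq2 adjusted p = 0.0109) and by 0.64 ± 0.19 against pair-fed (adjusted p = 0.00371). Against vehicle it did not pass in the fit of replicates 1 to 3 alone (-0.37, adjusted p = 0.225). Ccl5 (RANTES), which attracts T cells and monocytes, had means of 40.3 ± 17.0 with vehicle, 39.8 ± 12.8 with pair-feeding and 30.7 ± 12.6 with GDF15. Its log2 difference was -0.39 (95% interval -1.004 to 0.23, adjusted p = 0.364) against vehicle and -0.36 (-0.97 to 0.26, adjusted p = 0.423) against pair-fed.

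Ccl24, the eosinophil attractant, was the only CC ligand with a higher mean in GDF15 samples. It ran from 3.49 to 17.8 with a median of 12.8 in vehicle samples, from 5.68 to 15.8 with a median of 8.58 in pair-fed samples, and from 6.42 to 26.0 with a median of 17.5 in GDF15 samples. The groups overlapped, with 3 GDF15 samples above every vehicle sample and 3 above every pair-fed sample. The log2 difference was 0.58 ± 0.40 against vehicle (DESeq2 adjusted p = 0.260) and 0.79 ± 0.40 against pair-fed (adjusted p = 0.127), and neither passed.

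Cxcl14, a CXC chemokine made by stromal and epithelial cells, was the only gene of the 10 whose GDF15 samples did not overlap either control group. It ran from 59.4 to 148 with a median of 89.0 in vehicle samples, from 56.4 to 106 with a median of 71.5 in pair-fed samples, and from 24.1 to 44.2 with a median of 34.0 in GDF15 samples. The highest GDF15 sample thus lay below the lowest sample of each control group. Absence of overlap on the lower side was found for 4 of the 10 genes against vehicle (Ccl2, Cxcl10, Cxcl14 and Cx3cr1), beside 6.94% of all genes, and for 1 of 10 against pair-fed, beside 5.23%. Cxcl14 fell 2.84-fold against vehicle (log2 -1.50 ± 0.24, DESeq2 adjusted p = 2.51e-08) and 2.15-fold against pair-fed (-1.11 ± 0.24, adjusted p = 9.43e-05). Against pair-fed it dropped under the fold threshold without pair-fed replicate 1 (-0.98, adjusted p = 0.000822) and in replicates 1 to 3 alone (-0.96, adjusted p = 0.0227).

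Cxcl10, an interferon-induced ligand of CXCR3, fell past the adjusted p but not the fold threshold. It ran from 96.6 to 170 with a median of 107 in vehicle samples, from 80.0 to 151 with a median of 121 in pair-fed samples, and from 39.8 to 91.9 with a median of 57.0 in GDF15 samples. No GDF15 sample reached the vehicle range, and 4 of 6 lay below all pair-fed samples. Cxcl10 fell by 0.87 ± 0.20 on the log2 scale against vehicle, 1.82-fold (DESeq2 adjusted p = 0.000154), and by 0.93 ± 0.20 against pair-fed, 1.91-fold (adjusted p = 5.34e-05). It passed the fold threshold as well when GDF15 replicate 1 was left out (-1.01 against vehicle and -1.07 against pair-fed), and against pair-fed also without GDF15 replicate 3 (-1.02) or pair-fed replicate 4 (-1.03). In replicates 4 to 6 alone it passed both thresholds too, at -1.1 against vehicle and -1.19 against pair-fed.

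Cxcl9, its neighbour on chromosome 5 and the other member of the set that binds CXCR3, did not pass in either comparison. It ran from 191 to 449 with a median of 235 in vehicle samples, from 206 to 322 with a median of 269 in pair-fed samples, and from 117 to 281 with a median of 219 in GDF15 samples, so that all 3 groups overlapped. The log2 difference was -0.37 ± 0.21 against vehicle (95% interval -0.78 to 0.051, DESeq2 adjusted p = 0.178) and -0.37 ± 0.21 against pair-fed (-0.78 to 0.047, adjusted p = 0.191). Cxcl11, the remaining CXCR3 ligand, averaged 122 ± 16.1 with vehicle, 148 ± 21.1 with pair-feeding and 149 ± 24.8 with GDF15 (adjusted p = 0.0584 against vehicle and 0.953 against pair-fed).

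Whether these ligands differed in their response was tested on their ratios within a library, a test chosen after the values were seen, over 9 tests of 3 ratios in 3 comparisons. The log2 ratio of Cxcl10 to Cxcl11 was lower with GDF15 by 1.18 against vehicle (two-sided exact permutation p = 0.00216, the lowest possible here, adjusted p = 0.0195), with 6 of 6 GDF15 samples below all vehicle samples. Against pair-fed the log2 difference of that ratio was -0.97 (exact permutation p = 0.00433, adjusted p = 0.0195), with 5 of 6 GDF15 samples below all pair-fed samples. The ratio of Cxcl10 to Cxcl9 differed by -0.54 against vehicle and -0.55 against pair-fed and did not pass after adjustment (exact permutation p = 0.0346 and 0.0411, adjusted p = 0.0925 for both). A different response of Cxcl10 and Cxcl9 was therefore not resolved with 6 mice per group. It passed on leaving out GDF15 replicate 6 (adjusted permutation p = 0.0195 against vehicle and 0.0438 against pair-fed) or, against pair-fed, pair-fed replicate 4 (adjusted permutation p = 0.0325).

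Cxcl1, the neutrophil attractant, had a higher mean in GDF15 samples than in either control group. It ran from 91.0 to 241 with a median of 152 in vehicle samples, from 59.4 to 161 with a median of 120 in pair-fed samples, and from 105 to 288 with a median of 164 in GDF15 samples. The GDF15 samples were spread widely, with 2 above all vehicle samples and 3 above all pair-fed samples. The log2 difference was 0.20 ± 0.28 against vehicle (DESeq2 adjusted p = 0.613) and 0.68 ± 0.28 against pair-fed (adjusted p = 0.0503). The latter lay at the threshold: it passed with TMM library sizes (adjusted p = 0.0494), with a filter on low counts (0.0490), in replicates 1 to 3 alone (0.0282), and without GDF15 replicate 2 (0.0250), 4 (0.0175) or 5 (0.0313) or pair-fed replicate 6 (0.0245). It did not pass in edgeR (0.0739), without independent filtering (0.0567), with only the 12 samples compared (0.0554), with the replicate number as a block (0.0552), in replicates 4 to 6 alone (0.508) or in the other 8 of the 12 fits that leave out a library (0.0595 to 0.162).

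Both receptors fell in both GDF15 comparisons. Ccr2, the CCL2 receptor of inflammatory monocytes, ran from 17.5 to 54.2 with a median of 34.0 in vehicle samples, from 16.5 to 39.8 with a median of 24.8 in pair-fed samples, and from 5.12 to 18.1 with a median of 9.75 in GDF15 samples. In each comparison 5 of 6 GDF15 samples lay below all control samples, and 1 lay within their range. Ccr2 fell 3.57-fold against vehicle (log2 -1.83 ± 0.33, DESeq2 adjusted p = 6.70e-07) and 2.55-fold against pair-fed (-1.35 ± 0.33, adjusted p = 0.000567). Its levels rest on 5 to 15 counts per GDF15 library and 15 to 52 per vehicle library. The fall against pair-fed was -2.08 in replicates 1 to 3 (adjusted p = 0.00108) and -0.62 in replicates 4 to 6 (adjusted p = 0.355), where the pair-fed libraries are the larger ones.

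Cx3cr1, the fractalkine receptor, ran from 122 to 232 with a median of 156 in vehicle samples, from 69.3 to 169 with a median of 127 in pair-fed samples, and from 14.5 to 80.9 with a median of 48.9 in GDF15 samples. All 6 GDF15 samples lay below the vehicle range, and 4 of 6 below the pair-fed range. Cx3cr1 fell 3.38-fold against vehicle (log2 -1.76 ± 0.30, DESeq2 adjusted p = 2.30e-07) and 2.46-fold against pair-fed (-1.30 ± 0.31, adjusted p = 0.000268). The ligand gene Cx3cl1 fell as well against vehicle, from 62.7 ± 21.2 to 26.0 ± 8.50 (log2 -1.27 ± 0.28, adjusted p = 6.75e-05), and stood at 41.3 ± 13.9 in pair-fed samples, a log2 difference from GDF15 of -0.65 ± 0.28 that did not pass (adjusted p = 0.0737).

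**Figure D2:**
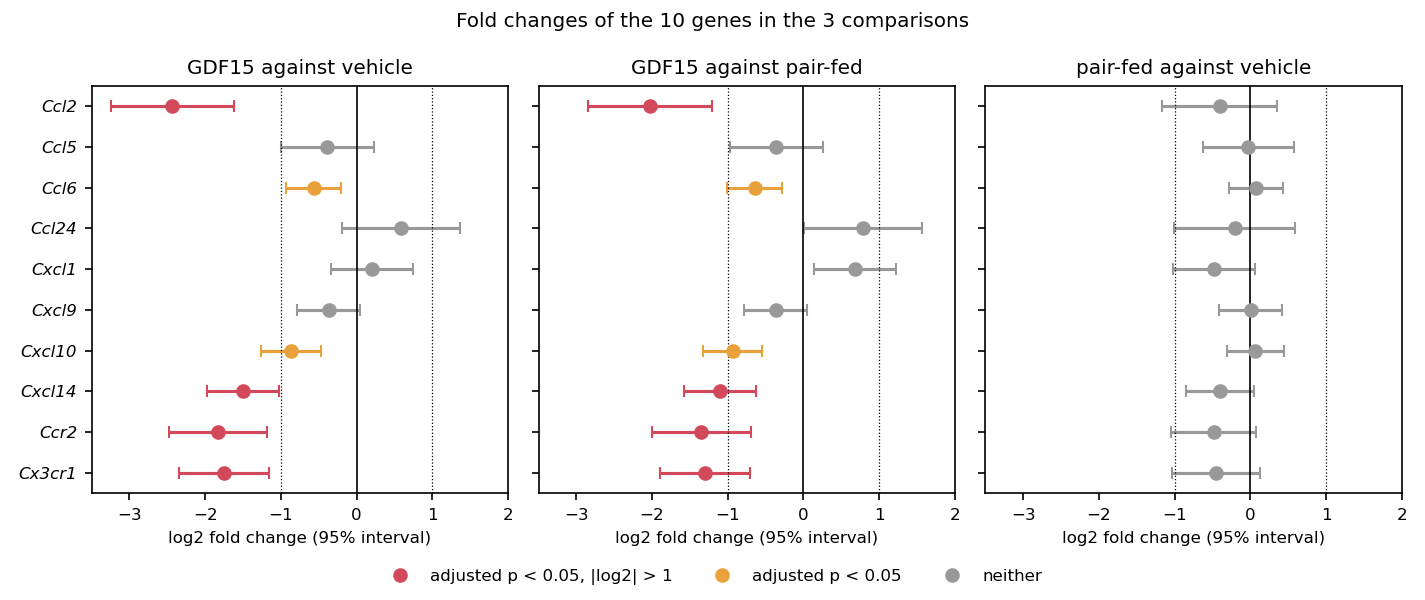
Log2 fold changes of the 10 genes (horizontal axis) with 95% intervals from DESeq2, in GDF15 against vehicle, GDF15 against pair-fed and pair-fed against vehicle. Red marks genes called changed (Ccl2, Cxcl14, Ccr2 and Cx3cr1 in both GDF15 comparisons), orange those past the adjusted p alone (Ccl6 and Cxcl10) and grey the rest. In pair-fed against vehicle every interval includes 0.

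Pair-feeding alone gave no call. Of the 10 genes, 0 passed an adjusted p under 0.05 in pair-fed against vehicle with DESeq2 and 0 with edgeR. In the main fits 0 reached an unadjusted p under 0.05 with either tool, and 0% of all genes tested passed after adjustment. Of 16242 genes, 718 had an unadjusted p under 0.05 with DESeq2, and 620 genes had one with edgeR. With the replicate number as a block, Cxcl14 (-0.37, DESeq2 unadjusted p = 0.0389) and Cxcl1 (-0.51, unadjusted p = 0.0443) were under 0.05, and 0 passed after adjustment. Of the differences, 7 pointed down and 3 up, with a median of -0.30. The log2 difference was -0.41 (95% interval -1.17 to 0.35) for Ccl2, -0.48 (-1.05 to 0.081) for Ccr2, -0.46 (-1.03 to 0.12) for Cx3cr1, -0.40 (-0.84 to 0.050) for Cxcl14 and -0.48 (-1.02 to 0.062) for Cxcl1. For Ccl24 it was -0.20 (-1.003 to 0.59). The intervals of these genes other than Cxcl14 extended below -1, so a fall past the fold threshold lay within the error of 6 mice per group. For Cxcl9 and Cxcl10 the differences were 0.0036 (-0.41 to 0.42) and 0.064 (-0.31 to 0.44).

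The order of the 10 genes was compared on a scale that divides counts by transcript length (TPM, scaled to the same total in every library). In vehicle livers the highest mean levels were 11.8 TPM for Ccl6, 10.2 for Cxcl9 and 9.46 for Cxcl1, followed by 7.14 for Ccl2, 6.65 for Ccl5, 5.89 for Cxcl14, 5.72 for Cxcl10, 4.03 for Cx3cr1, 0.974 for Ccl24 and 0.691 for Ccr2. Of the neighbours in this order, only Cx3cr1 and Ccl24 were separated in every sample. With GDF15 the order was 9.34 TPM for Cxcl1, 6.86 for Cxcl9, 6.85 for Ccl6, 4.37 for Ccl5, 2.69 for Cxcl10, 1.76 for Cxcl14, 1.24 for Ccl24, 1.12 for Ccl2, 1.02 for Cx3cr1 and 0.167 for Ccr2. Ccl2 thus stood beside Ccl24 in GDF15 livers, and among neighbours only Cx3cr1 and Ccr2 were separated in every sample.

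Receptors and ligands that pair with the set were read from a list of 51 further chemokine and chemokine receptor genes, of which 44 were measured. Compared with vehicle, 9 of 35 with an adjusted p were called lower and none higher, beside 5.37% of all genes called lower. Compared with pair-fed, 4 of 34 were called lower and none higher, beside 2.75%. The 4 called in both were Ccl7, Cxcl2, Ccr7 and Cxcr4, and edgeR did not test Ccl7 or Cxcl2. Ccl7, a second ligand of CCR2, averaged 7.80 ± 2.71 in vehicle livers, 9.14 ± 5.03 in pair-fed livers and 1.88 ± 1.75 in GDF15 livers (log2 -2.01 ± 0.62 and -2.17 ± 0.62, DESeq2 adjusted p = 0.00651 and 0.00312), on 0 to 5 counts per GDF15 library. Cxcl2, a CXCR2 ligand like Cxcl1, fell by 1.26 ± 0.52 and 1.27 ± 0.51 (adjusted p = 0.0470 and 0.0484), on 2 to 4 counts per GDF15 library. With the replicate number as a block Cxcl2 passed in neither comparison (-1.19 and -1.29, adjusted p = 0.0826 and 0.0580). Ccr7, a receptor of dendritic cells and lymphocytes, fell by 1.26 ± 0.38 and 1.31 ± 0.37 (adjusted p = 0.00425 and 0.00305), and Cxcr4, the CXCL12 receptor, fell by 1.16 ± 0.29 and 1.19 ± 0.29 (adjusted p = 0.000574 and 0.000489).

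Among the receptors of the ligands in the set, Ccr1 passed against vehicle and not against pair-fed. It differed by -1.32 ± 0.42 against vehicle (DESeq2 adjusted p = 0.00869) and -1.03 ± 0.43 against pair-fed (adjusted p = 0.0546). Ccr1 rested on 2 to 9 counts per GDF15 library, and edgeR did not test it. Whether the 2 comparisons differ from each other was not tested. Cxcr3 differed by -0.18 ± 0.37 and -0.19 ± 0.37 (adjusted p = 0.744 and 0.735), and Cxcr2 by -0.029 ± 0.20 and 0.37 ± 0.20 (adjusted p = 0.932 and 0.153). Ccr3, the CCL24 receptor gene, had 0 to 1 counts per GDF15 library and no adjusted p in either GDF15 comparison. The genes that rose past the adjusted p in each GDF15 comparison numbered 2, Cxcl12, a homeostatic chemokine, by 0.41 ± 0.089 and 0.37 ± 0.089 (adjusted p = 4.31e-05 and 0.000368), and Ccl27a, which has near-identical copies in the mouse genome and whose level is therefore uncertain.

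**Figure D3:**
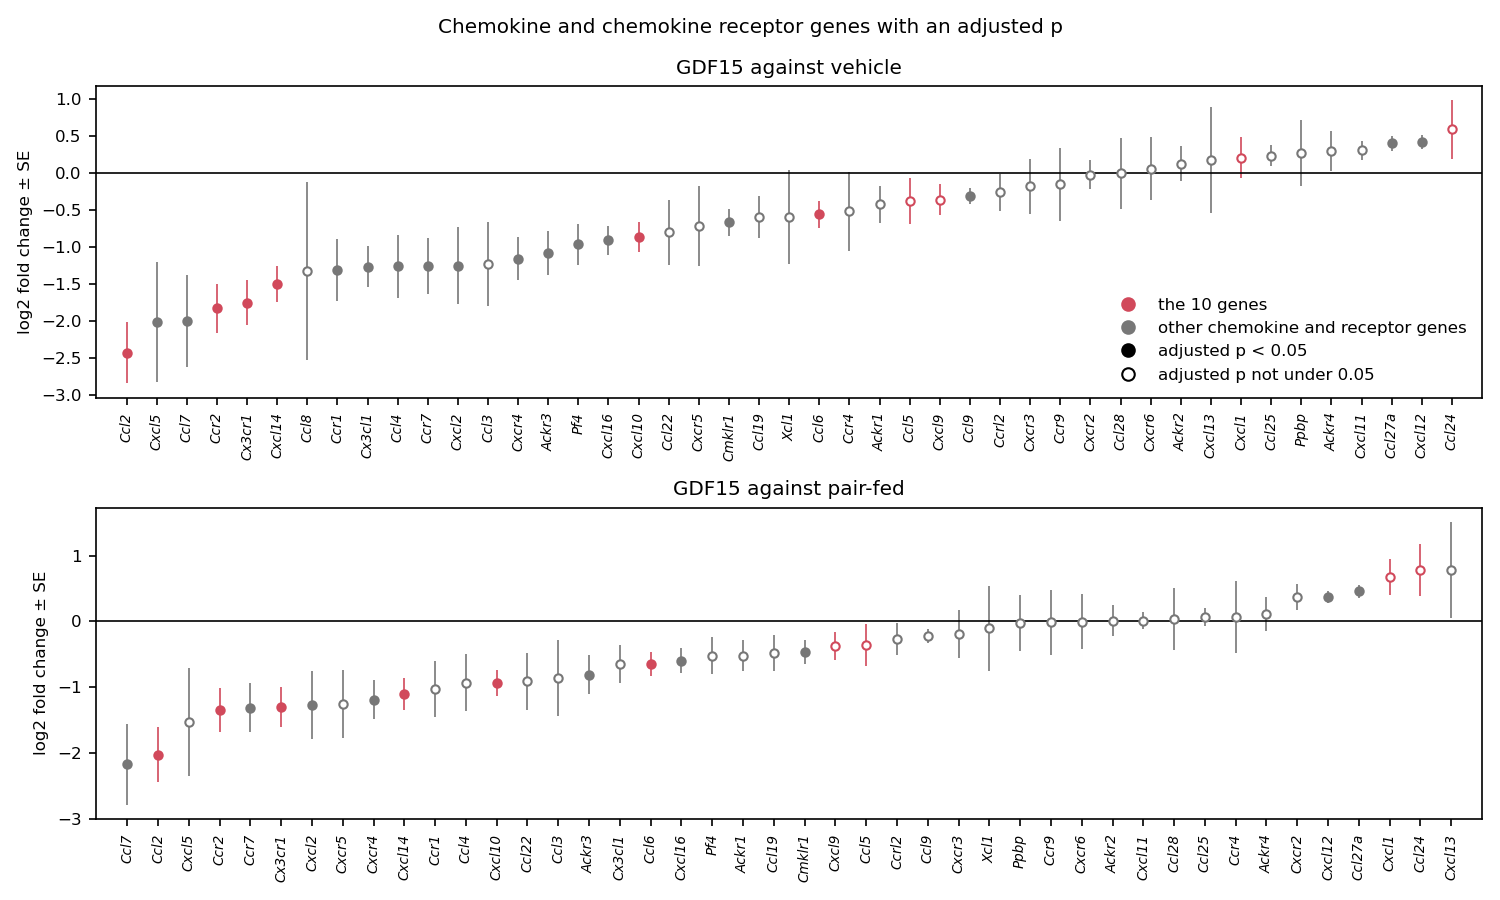
Log2 fold changes ± SE (vertical axes) of the 10 genes (red) and of other chemokine and receptor genes with an adjusted p (grey), ordered by size, in GDF15 against vehicle and GDF15 against pair-fed; filled points have an adjusted p under 0.05. Ccl2 stands at the low end in both panels (-2.43 and -2.03), and Ccl24 and Cxcl1 stand near the high end against pair-fed (0.79 and 0.68) as open points.

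Transcripts of cytokines, transcription factors and other genes that induce or restrain these chemokines moved unevenly. Tnf and Il1b, the main cytokine inducers of Ccl2 and Cxcl1, did not pass, with log2 differences of -0.48 ± 0.57 and -0.81 ± 0.39 against vehicle (DESeq2 adjusted p = 0.559 and 0.0972) and -0.52 ± 0.57 and -0.52 ± 0.39 against pair-fed (adjusted p = 0.532 and 0.349). Csf1, a growth factor of macrophages, was the only one of 3 cytokine genes with an adjusted p that passed in either comparison. It fell by 0.44 ± 0.12 against vehicle (adjusted p = 0.00219) and differed by -0.25 ± 0.12 against pair-fed (adjusted p = 0.116). Of the 5 cytokine genes measured, Ifng and Il10 had no adjusted p in the GDF15 comparisons. They rested on 0 to 7 and 0 to 2 counts per GDF15 library, and Tnf on 0 to 9. Of 11 interferon and NF-kappaB factors, 4 were lower and 2 higher at an adjusted p under 0.05 in each comparison. Of all genes, 17.5% were lower at that threshold against vehicle and 13.8% against pair-fed. Relb, of the non-canonical NF-kappaB pathway, fell by 1.27 ± 0.24 and 1.09 ± 0.24 (adjusted p = 3.96e-06 and 0.000137), and its partner Nfkb2 fell by 0.73 ± 0.12 and 0.49 ± 0.12 (adjusted p = 3.42e-08 and 0.000486). Rela, Nfkb1 and Nfkbia of the same list passed in neither comparison. Rela differed by -0.046 and -0.0098 (DESeq2 adjusted p = 0.531 and 0.913) and Nfkb1 by -0.089 and -0.13 (0.319 and 0.122). Nfkbia differed by -0.0033 and 0.096 (DESeq2 adjusted p = 0.981 and 0.381). Tnfaip3, an NF-kappaB target that restrains the pathway, fell by 0.88 ± 0.16 and 0.84 ± 0.16 (adjusted p = 1.34e-06 and 4.55e-06), and the myeloid factor Irf8 fell by 0.52 ± 0.15 and 0.54 ± 0.15 (adjusted p = 0.00318 and 0.00252). Stat2 and Irf9, subunits of the factor that binds the ISRE, were higher by 0.31 ± 0.069 and 0.35 ± 0.075 against vehicle (adjusted p = 7.69e-05 and 3.82e-05).

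Markers of leukocytes moved with the set. In bulk tissue, fewer cells of a type and less RNA per cell cannot be told apart. The counts of lower markers stand beside 17.5% of all genes against vehicle and 13.8% against pair-fed. All 4 leukocyte markers, among them Ptprc (CD45), fell past the adjusted p threshold in both GDF15 comparisons, and their summed normalized count ran from 838 to 1529 in vehicle samples, 945 to 1333 in pair-fed samples and 445 to 853 in GDF15 samples. Of 7 monocyte and macrophage markers, 6 were lower against vehicle and 4 against pair-fed, with sums of 2336 to 5003, 2102 to 3933 and 1220 to 2564 in vehicle, pair-fed and GDF15 samples. The one that passed in neither comparison was Ly6c2, a marker of inflammatory monocytes, at -0.068 ± 0.28 and -0.30 ± 0.27 (DESeq2 adjusted p = 0.881 and 0.430). Of 4 markers of lipid-associated macrophages, 3 (Trem2, Gpnmb and Spp1) were called lower in both, with sums of 2994 to 9393, 2736 to 6940 and 1393 to 2772. Of 5 markers of Kupffer cells, the resident macrophages, only Cd5l passed, and Clec4f differed by 0.15 ± 0.18 and -0.0084 ± 0.18 (DESeq2 adjusted p = 0.550 and 0.981).

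The other marker lists cover further cell types that make or answer these chemokines. None of 8 T and NK cell markers was lower at an adjusted p under 0.05 (Cd4 was higher against vehicle), with sums of 43.3 to 93.9, 59.4 to 98.0 and 39.2 to 108 in vehicle, pair-fed and GDF15 samples. Of the 4 neutrophil markers measured, only Csf3r was lower, with sums of 44.2 to 116, 53.9 to 90.9 and 28.9 to 61.6. The eosinophil markers summed to 0 to 7.17 normalized counts in GDF15 samples, 5.42 to 12.8 in vehicle samples and 3.30 to 15.08 in pair-fed samples, so they were at or near the limit of detection. Of 4 B cell markers, 1 was lower against vehicle and 3 against pair-fed, and of 3 dendritic cell markers measured only Flt3 was lower, in both comparisons. Stellate cell markers were lower for 5 of 5 genes against vehicle and 4 of 5 against pair-fed (sums of 2686 to 4861, 2716 to 3663 and 1477 to 2219), cholangiocyte markers for 4 of 4 against vehicle and none against pair-fed, and endothelial markers for none. Of 5 hepatocyte markers, 4, with Alb among them, were higher in both comparisons. The part of these cell types in the chemokine differences was not tested.

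The genes were next set beside Ptprc in the same library, as the difference of log2(normalized count + 1). A value below 0 for the change means that a gene fell more than Ptprc, which itself fell by 0.71 ± 0.21 and 0.74 ± 0.21 on the log2 scale (DESeq2 adjusted p = 0.00296 and 0.00228 against vehicle and pair-fed). Against vehicle, 4 of the 10 genes were lower relative to Ptprc at an adjusted p under 0.05, beside 1.82% of the 12882 genes tested. The change was -1.82 for Ccl2 (two-sided exact permutation p = 0.00216, adjusted p = 0.0328, 6 of 6 GDF15 samples below all vehicle samples), -1.21 for Cx3cr1 (exact p = 0.0195, adjusted p = 0.0389, 4 of 6), -1.03 for Ccr2 (exact p = 0.0238, adjusted p = 0.0421, 4 of 6) and -0.76 for Cxcl14 (exact p = 0.0152, adjusted p = 0.0363, 5 of 6). These calls are near the threshold: each was lost in 8 to 11 of the 12 fits that leave out a library. For Ccr2 the call was also lost with Adgre1, Csf1r or Cd68 in place of Ptprc, at changes of -1.10, -1.17 and -0.81 (adjusted permutation p = 0.0537, 0.0512 and 0.0819), while for Ccl2 it held with each of these.

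Against pair-fed, Ccl2 alone of the 10 was lower relative to Ptprc, by 1.32 (exact permutation p = 0.0173, adjusted p = 0.0310, 4 of 6 GDF15 samples below all pair-fed samples), beside 0.737% of all genes. With Adgre1 or Csf1r in place of Ptprc the change was larger, at -1.68 and -1.62, but did not pass (adjusted permutation p = 0.166 and 0.0670), and the call relative to Ptprc was lost in 6 of the 12 fits that leave out a library. The change relative to Ptprc was -0.71 for Cx3cr1, -0.52 for Ccr2 and -0.36 for Cxcl14, and none of these passed (adjusted permutation p = 0.198, 0.165 and 0.229). Cxcl10 and Ccl6, which fell in absolute level, changed relative to Ptprc by -0.19 and 0.12 against vehicle and by -0.20 and 0.098 against pair-fed (adjusted permutation p = 0.474, 0.574, 0.466 and 0.658). Ccl24 and Cxcl1 rose relative to Ptprc in both comparisons, by 1.34 and 0.86 against vehicle (adjusted permutation p = 0.0355 and 0.0404) and 1.48 and 1.38 against pair-fed (0.0226 and 0.0202), as did 60.6% and 69.8% of all genes, whose median changes were 0.72 and 0.77. Against vehicle these calls were lost in 8 (Ccl24) and 9 (Cxcl1) of the 12 fits that leave out a library, and for Cxcl1 with Csf1r in place of Ptprc (0.71, adjusted permutation p = 0.0536). Against pair-fed none was lost on leaving out a library, but both were with Adgre1 (1.12 and 1.02, adjusted permutation p = 0.183 and 0.178) and with Csf1r (1.18 and 1.08, adjusted permutation p = 0.0670 and 0.0619).

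**Figure D4:**
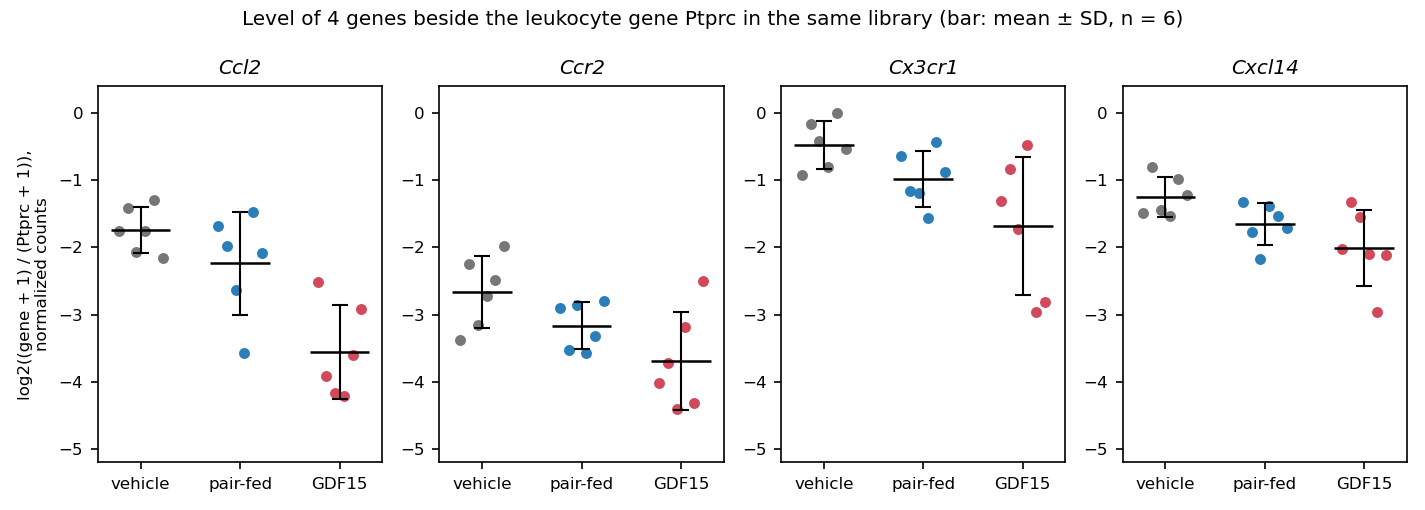
Log2 ratio of the normalized counts of Ccl2, Ccr2, Cx3cr1 and Cxcl14 (each + 1) to that of Ptprc (+ 1) in the same library (vertical axes), with 1 point per mouse and black bars for mean ± SD (n = 6). For Ccl2 all 6 GDF15 samples lie below the vehicle samples, and for the other genes 4 or 5 of 6 do.

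Variation between mice of the same group was described with the group means removed, as correlations over 18 libraries that share their depth and tissue makeup. Over the 45 pairs of the 10 genes, Pearson's r ranged from -0.023 to 0.68 with a median of 0.41, and 15 pairs were above 0.5. The highest values were 0.68 for Ccl6 with Cxcl10, 0.67 for Ccl5 with Cxcl10 and 0.66 for Ccl6 with Cxcl14. Ccr2 varied apart from the ligands, with r of 0.41 with Ccl2 and at most 0.16 with the others, and r was 0.051 between Ccr2 and Cx3cr1.

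**Figure D5:**
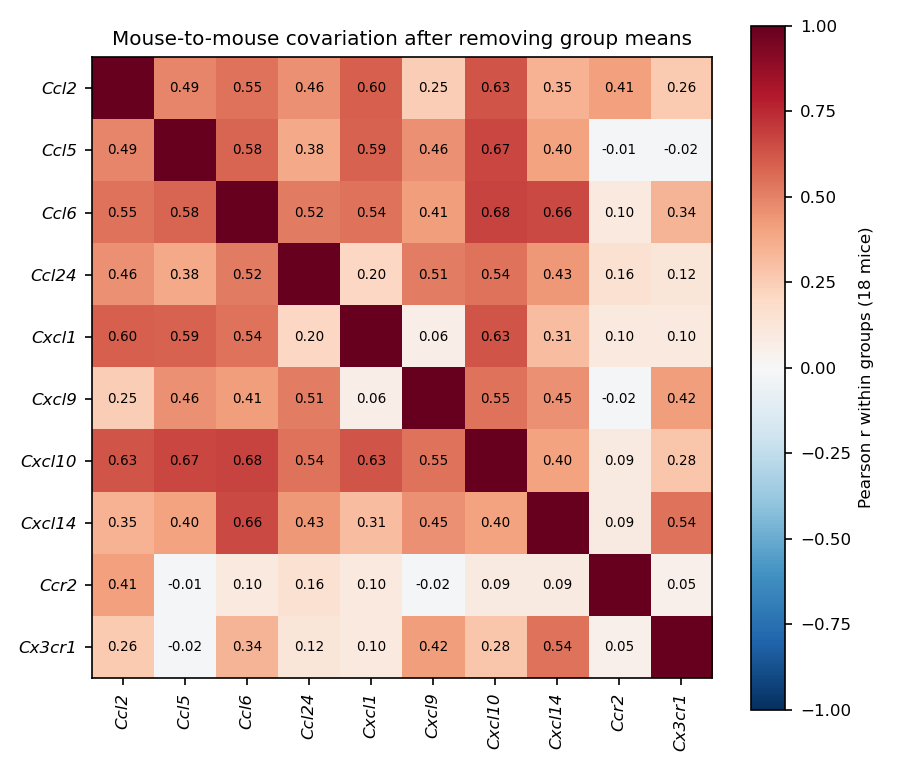
Pearson's r between each pair of the 10 genes over 18 mice after subtraction of group means (colour scale from -1 to 1, values printed in the cells). The ligands form a block of positive values up to 0.68, and the row of Ccr2 is near 0 except for Ccl2 (0.41).

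The genes whose variation was most like each member were sought among the 10877 genes averaging 50 or more normalized counts, over the same 18 libraries. For Ccl6 they were Vsir, Tnfaip3 and Cd84 (r = 0.93, 0.91 and 0.91), and for Cxcl14 they were Mfge8, Islr and Vim (0.91, 0.90 and 0.89). For Cx3cr1 they were Gpx3, Trem2 and Ifi27l2b (0.86, 0.86 and 0.85), where Trem2 is the lipid-associated macrophage marker counted above. Ccl2 was most like Hilpda, Ywhab and Adamts1 (0.86, 0.86 and 0.83). Cxcl10 was most like Rab3il1, Adra2b and Irf1 (0.82, 0.81 and 0.79), and Cxcl9 was most like Nin, Gbp2 and Zfp28 (0.77, 0.76 and 0.76). Cxcl1 was most like Bcl3, Tulp3 and Smad6 (0.85, 0.79 and 0.78), and Ccl5 was most like Btnl9, Slc44a2 and Stard9 (0.84, 0.83 and 0.82). For Ccl24 (Snx27, Hsdl2 and 2810025M15Rik) and Ccr2 (Arl10, Pot1a and Ercc1) the values were lower, from 0.72 to 0.79 and from 0.73 to 0.78, and both are among the least abundant genes of the set. The highest of 10877 correlations over 18 libraries can be high by chance, and none of these values was tested.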

How the data were processed

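Liver RNA was sequenced from 18 mice (vehicle, GDF15 and pair-fed, 6 each). According to the submitters' processing notes and the methods of the study, the authors trimmed reads with Trim Galore and quantified transcripts with Salmon (mm10). Versions are not given in the sources used here. The deposited table holds estimated counts per gene symbol, whole numbers not scaled for library size, with 16245 genes and a lowest row total of 5. Groups and replicate numbers came from the sample titles. A figure legend of the study gives 6 mice per group, so p-values measure the spread between mice.

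Counts from all 18 samples were fitted with DESeq2 1.42.0 (R 4.3.3; group as the only factor, Wald test, independent filtering, fold changes not shrunken), with Benjamini-Hochberg adjustment over all genes tested. Thresholds were an adjusted p of 0.05 and an absolute log2 fold change of 1. The quasi-likelihood test of edgeR 4.0.16 was an alternative, with others of scaling, filtering and samples. The fits were tested on simulated data. Ratios to Ptprc (pseudocount 1) were compared by exact two-sided permutation over 924 assignments, for genes averaging 10 or more normalized counts. Lengths for TPM came from the longest GENCODE transcript, found for 98.1% of genes.

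All 10 members are named by role. Further chemokine genes are named where called in both GDF15 comparisons, where they pair with a member, or where higher in both, and the 3 most similar genes per member by within-group correlation. Factors and marker genes came from written lists. Of the listed genes, 3 are not reported here and were left out of the counts and sums over lists. Members and lists were chosen with earlier results of these data known. Salmon divides reads between similar transcripts, so levels of closely related chemokine genes are less certain individually.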

Additional observations from a re-analysis of the deposited data

Results flagged for a closer look

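In vehicle replicate 2, Cxcl10 stood at 169.8 normalized counts (163 counts), with the next highest vehicle sample at 120.8. The gap was 0.670 of the range of the vehicle group, above Dixon's 95% critical value for 6 samples. It was the only such case among 30 groups of 6 samples (10 genes in 3 groups), where chance gives about 1.5. Without this library the Cxcl10 log2 fold change of GDF15 against vehicle was -0.73 (DESeq2 adjusted p = 0.00144), beside -0.87 with it.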

How the results depend on the processing

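The count of members called stayed at 4 against vehicle, 4 against pair-fed and 0 for pair-fed against vehicle with edgeR, TMM library sizes, a filter of 10 counts in 6 samples, no independent filtering and fits of only the 12 samples compared. With replicates 1 to 3 it was 4, 3 and 0, with replicates 4 to 6 it was 5, 4 and 0, and leaving out each sample in turn gave 4 to 5, 3 to 5 and 0 to 0. In replicates 4 to 6 against pair-fed the genes differed. Cxcl10 was called there (-1.19, DESeq2 adjusted p = 0.000398) and Ccr2 was not (-0.62, adjusted p = 0.355). Same-numbered samples correlated over 0.1 in 2, 3 and 3 of 6 pairs (GDF15 with vehicle, GDF15 with pair-fed, pair-fed with vehicle), with means of 0.0044, 0.027 and 0.17 beside 0.00062, -0.0054 and -0.035 for other numbers. Since not every pair exceeded 0.1 and the labels do not say that a number is shared, the main fit has no block, and pairing is not excluded. With the replicate number as a block the counts were again 4, 4 and 0. Among ratios to Ptprc against vehicle, the exact sign-flip test over same-numbered samples no longer passed for Cx3cr1 (exact p = 0.0625) and Cxcl1 (exact p = 0.0938). These sign-flip p-values are unadjusted, over 64 sign patterns, whereas the main ratio calls rest on an adjusted p. With the ratios to Ptprc judged in that way, no other call on the levels or Ptprc ratios of these members changed with the block. For the ratio of Cxcl10 to Cxcl9 the unadjusted sign-flip p was 0.0938 against vehicle and 0.03125 against pair-fed. In the main permutation test the adjusted p of that ratio was 0.0925 for both.

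Changes of sign were confined to values that had not passed, and their cause was not tested. In pair-fed against vehicle, replicates 4 to 6 gave 0.0028 for Ccl24, 0.40 for Ccl5 and -0.15 for Ccl6, replicates 1 to 3 gave -0.23 for Cxcl9, and edgeR gave -0.00070 for Cxcl9. Leaving out each sample there gave -0.15 to 0.13 for Ccl5, -0.0047 to 0.17 for Ccl6, -0.0069 to 0.20 for Cxcl10 and -0.077 to 0.21 for Cxcl9. In GDF15 against vehicle, replicates 4 to 6 gave -0.0043 for Cxcl1. Ratios changed sign with Csf1r (Ccl6 -0.028) or Cd68 (Cxcl10 0.029) in place of Ptprc against vehicle, and against pair-fed with Adgre1 (Ccl5 -0.029, Ccl6 -0.26, Cxcl9 -0.0060) or Csf1r (Ccl6 -0.20). Leaving out each sample gave -0.016 to 0.18 for the ratio of Ccl6 against pair-fed.

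Ccr2, Ccl2 and Ccl24 rest on few counts, which limits the precision of their values in GDF15 libraries.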
